A study of Mus musculus with 12 samples.

Results

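The genes of polycomb repressive complex 2 (PRC2) were followed at 35 probe sets, all those annotated to exactly 1 of Ezh1, Ezh2, Eed, Suz12, Rbbp4, Rbbp7, Jarid2, Aebp2, Mtf2 and Phf19, out of 45101 on an Affymetrix mouse expression array. The samples were mouse erythroleukemia (MEL) cells, a leukemia line that matures toward red cells in dimethyl sulfoxide (DMSO). The labels name 3 arrays of cells with knockdown of G9a, an enzyme that methylates lysine 9 of histone H3 and whose gene is Ehmt2, and 3 arrays of wild type cells. Both groups carry the same protocol text, with 2% DMSO for 4 days and a knockdown induced by 5 µg/ml of doxycycline, so whether wild type cells also received doxycycline is not known. The labels describe neither the knockdown construct nor the origin of the replicates, which may not be separate cultures, and the p-values then cover technical spread alone.

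PRC2 places methyl groups on lysine 27 of histone H3, a mark of silenced genes. EZH2 or EZH1 is the catalytic subunit, EED binds the finished mark and stimulates the enzyme, SUZ12 holds the complex together, and RBBP4 and RBBP7 bind histones. JARID2 with AEBP2, or a Polycomb-like protein such as MTF2 or PHF19, joins this core in alternative forms of the complex. In human erythroid cells EZH1 is known to replace EZH2 in part as the cells mature.

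Levels below are GCRMA values on the log2 scale, a summary of each probe set that the authors deposited. Differences are knockdown minus wild type, tested with limma over the 17028 probe sets that exceeded log2 4 on 3 or more of the 6 arrays, with the replicate number as a block. A probe set was called at a p of 0.05 or less after Benjamini-Hochberg adjustment over all of them. A level is not compared between probe sets, since probes bind with different strength.

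The labels were checked against the targeted gene. Ehmt2 at 1460692_at read 6.67, 7.33 and 7.58 in knockdown arrays 1 to 3, against 9.92, 10.03 and 10.23 in wild type arrays 1 to 3. It fell by 2.87 (95% interval −3.24 to −2.49, limma adjusted p = 0.0316), and 1426888_at fell by 2.86 (limma adjusted p = 0.0278). Those were the 2 probe sets called on the array. Without both arrays of number 1, 2 or 3 the limma adjusted p at 1426888_at was 0.277, 0.142 and 0.0444 and at 1460692_at 0.277, 0.142 and 0.0518, while the differences stayed between −2.98 and −2.68. Of 13 erythroid markers on the array 12 passed the filter, among them Gata1, Klf1, Epor and Alas2, against 2 of 12 myeloid, 2 of 5 megakaryocyte, 1 of 6 lymphoid and 0 of 7 fibroblast or endothelial markers. Same-numbered arrays of the knockdown and of wild type departed together from their group means, with correlations of 0.72, 0.57 and 0.37. Across numbers 2 and 3 the correlations were 0.17 and 0.13, and across number 1 and the others −0.59 to −0.36. What a replicate number means is not in the labels. The 5 megakaryocyte markers on the array had a summed level, on the linear scale, of 2109 to 3233 in knockdown arrays and 3691 to 4595 in wild type arrays. Among them Itga2b differed by −0.71 (limma adjusted p = 0.226). The summed level of all myeloid markers on the array was 175 to 214 in knockdown arrays and 159 to 186 in wild type arrays. Of the 2 tested myeloid markers, 1 had a difference above 0 and 1 below 0. The myeloid protease gene Prtn3 read 5.82, 6.30 and 5.04 in knockdown arrays 1 to 3, against 5.25, 4.35 and 3.97 in wild type arrays 1 to 3, a difference of 1.19 (limma adjusted p = 0.21) and of 1.48 in MAS5, higher in 3 of 3 numbers in both. The part of these markers in the PRC2 values was not tested.

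Promoters of the PRC2 genes were read from RefSeq (GRCm38.p6), which holds 14 windows for all 10 genes, each from 250 bases before to 50 bases after a transcription start. Taking for each gene its window richest in CpG dinucleotides, the 10 genes had a median of 30.5 CpG, against a median of 8 over all 27025 genes in the table, coding or not, taken the same way. Windows at the other starts of Mtf2 and Aebp2 held 2, 4 and 4 CpG. Motif shares below are over all 32851 windows. The windows below belong to the genes on which the account turns, Ezh2, Mtf2, Rbbp4 and Aebp2. Ezh2 and Mtf2 were low in the same arrays, and Rbbp4 was high in both of them at its brightest probe set alone. Aebp2 had the lowest unadjusted p of the tested PRC2 genes in the knockdown comparison. Capitals mark TTTNNCGC, a form of the E2F site, and the CCAAT box, on either strand.
Ezh2, chr6:47594981-47595280, minus strand: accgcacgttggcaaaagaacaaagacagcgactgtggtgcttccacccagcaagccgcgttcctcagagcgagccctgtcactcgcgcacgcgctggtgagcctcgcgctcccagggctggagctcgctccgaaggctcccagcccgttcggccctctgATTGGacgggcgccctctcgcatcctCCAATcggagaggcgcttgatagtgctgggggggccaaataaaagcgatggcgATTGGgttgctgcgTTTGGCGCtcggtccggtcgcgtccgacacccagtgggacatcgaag
Mtf2, chr5:108065424-108065723, plus strand: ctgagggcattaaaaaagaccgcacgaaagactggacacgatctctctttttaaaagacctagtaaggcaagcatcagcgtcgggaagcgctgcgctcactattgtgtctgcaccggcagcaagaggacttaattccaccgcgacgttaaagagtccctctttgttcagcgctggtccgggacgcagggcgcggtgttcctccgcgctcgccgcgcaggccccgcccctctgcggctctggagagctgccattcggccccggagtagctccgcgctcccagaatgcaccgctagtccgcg
Rbbp4, chr4:129335321-129335620, minus strand: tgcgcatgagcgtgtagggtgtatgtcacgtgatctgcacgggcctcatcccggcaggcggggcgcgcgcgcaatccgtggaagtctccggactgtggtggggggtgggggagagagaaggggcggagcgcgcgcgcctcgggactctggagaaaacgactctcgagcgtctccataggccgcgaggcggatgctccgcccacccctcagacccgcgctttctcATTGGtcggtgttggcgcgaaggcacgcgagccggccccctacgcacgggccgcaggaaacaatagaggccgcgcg
Aebp2, chr6:140624659-140624958, plus strand: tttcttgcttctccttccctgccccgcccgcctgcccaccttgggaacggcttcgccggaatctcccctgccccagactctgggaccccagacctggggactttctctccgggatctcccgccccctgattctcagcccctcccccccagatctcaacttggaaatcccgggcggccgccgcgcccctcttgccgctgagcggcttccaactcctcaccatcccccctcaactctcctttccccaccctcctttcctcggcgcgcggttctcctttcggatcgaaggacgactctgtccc

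The Ezh2 window held 1 TTTNNCGC match and 3 CCAAT matches, the Rbbp4 window 1 CCAAT match, and the Mtf2 and Aebp2 windows shown 0 of either. TTTNNCGC was in 3 of the 14 windows, those of 3 genes (Ezh2, Phf19 and Suz12), and in 5.17% of all windows. CCAAT was in 9 of the 14 windows, those of 8 genes, and in 37.4% of all windows. TATAAA was in a Jarid2 window and in 13.6% of all, and the GATA motif NGATAA was in 0 of the 14 windows and in 25.3% of all. The matches say which letters lie in these windows, and factor binding was not measured.

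No PRC2 probe set was called in either direction by limma. Of the 35, 26 passed the filter, and each of the 26 was above log2 4 in all 6 arrays. Their limma adjusted p-values ran between 0.271 and 0.978, where 0.0117% of all tested probe sets were called. At an unadjusted p under 0.05 there were 4 of 26, all higher in the knockdown, or 15.4% against 13.7% of all tested probe sets, which is near the background. By direction, 6.44% of all tested probe sets were higher by that rule and 7.24% lower. Without the replicate number as a block 2 of 26 remained under 0.05, both of Aebp2, against 5.87% of all tested. The groups did not overlap at 5 of 26, against 12.4% of all tested, and 4 of those were higher in the knockdown (5.04% of all tested). The sign was the same in all 3 replicate numbers at 7 of 26 (26.9%, against 37.9% of all tested), and MAS5 gave the GCRMA sign at 19 of 26 (73.1%, against 79.4%). The difference was above 0 for 15 of 26 (57.7%, against 48.3% of all tested), with a median of 0.030 against −0.0083. Without both arrays of number 1, 2 or 3 the count under 0.05 was 2, 2 and 1. Every 95% interval from GCRMA excluded a change of 2-fold or more, and 22 of 26 excluded 1.5-fold. In MAS5 the interval of Aebp2 1437743_at included 2-fold, running from 1.18-fold to 2.77-fold.

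**Figure D1:**
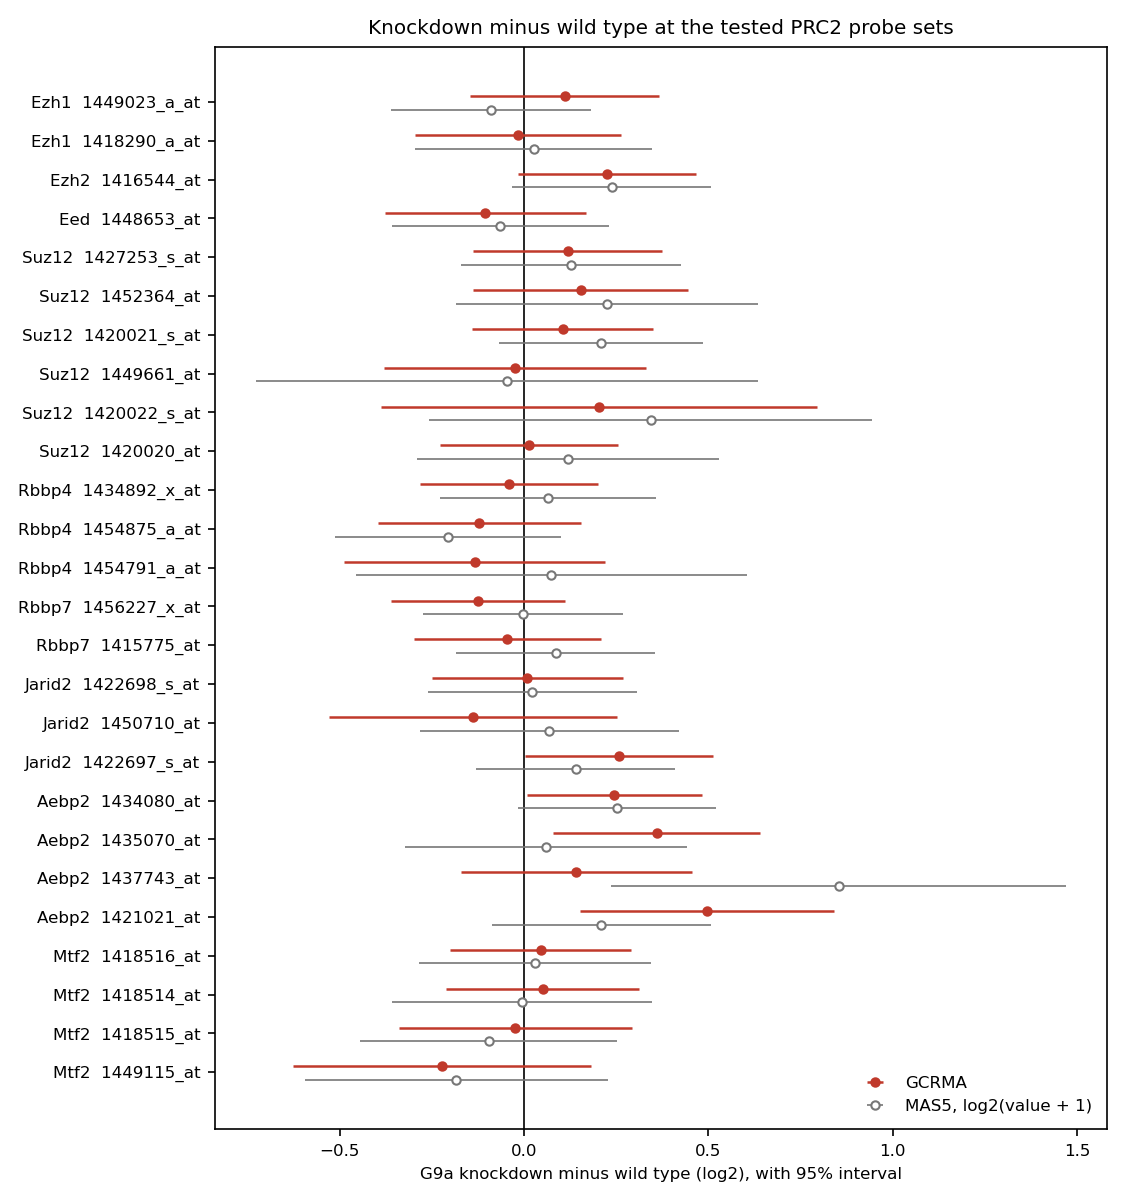
Knockdown minus wild type (horizontal axis, log2) at the 26 tested PRC2 probe sets, 1 a row. Filled points are GCRMA and open points MAS5, with 95% intervals from limma. The GCRMA intervals lie between −0.63 and 0.84, and those of 3 Aebp2 probe sets and 1 Jarid2 probe set lie above 0.

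Among the catalytic subunits, Ezh2 was higher in the knockdown array of each number and differed far more between numbers than between groups. Its probe set 1416544_at read 12.54, 13.48 and 13.16 in knockdown arrays 1 to 3, against 12.28, 13.21 and 13.03 in wild type arrays 1 to 3. The groups overlap, and both arrays numbered 1 were the lowest. Apart from those, knockdown array 3 still read below wild type array 2. Within numbers the knockdown was higher by 0.26, 0.27 and 0.14. The blocked difference was 0.22 (95% interval −0.02 to 0.47, limma adjusted p = 0.39). The unadjusted limma p was 0.0627 with the replicate number as a block and 0.513 without it. With the block but no filter it was 0.00906 (limma adjusted p = 0.317). Without a block, leaving out wild type array 1 turned the difference to −0.055. In MAS5 the difference was 0.24, higher in 3 of 3 numbers.

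Ezh1 read 7.89, 8.27 and 8.33 at 1449023_a_at in knockdown arrays 1 to 3, against 7.93, 8.09 and 8.15 in wild type arrays 1 to 3. The groups overlap, the difference was 0.11 (−0.15 to 0.37), and in MAS5 the sign turned, to −0.089. The dimmer 1418290_a_at averaged 5.94 ± 0.069 in the knockdown and 5.96 ± 0.11 in wild type (SD, n = 3 each), and its other 2 probe sets lay below the filter. Neither catalytic subunit thus passed the threshold, and the interval for Ezh2 includes rises up to 1.38-fold.

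The scaffold and reader subunits differed little at their brightest probe sets. Eed at 1448653_at read 10.37, 10.21 and 10.56 in knockdown arrays 1 to 3, against 10.47, 10.48 and 10.51 in wild type arrays 1 to 3. The knockdown arrays straddle the narrow wild type range, with a difference of −0.10 (−0.38 to 0.17). Suz12 was read by 6 probe sets, all of them tested, and 5 had a difference above 0. At 1427253_s_at it averaged 10.76 ± 0.10 in the knockdown and 10.64 ± 0.11 in wild type (SD, n = 3 each), a difference of 0.12 (−0.14 to 0.37). Suz12 at 1420021_s_at was higher in the knockdown in 3 of 3 numbers, by at most 0.16. At 1420022_s_at the numbers disagreed most, with knockdown minus wild type of 0.75, −0.46 and 0.31.

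The 6 Suz12 probe sets did not follow each other closely over the 6 arrays. Pearson's r between pairs of them ran from −0.040 to 0.96, as a description of arrays that share groups and numbers. By Affymetrix naming, the _s_at probe sets can match transcripts of more than 1 gene and the _x_at sets contain probes that may bind unrelated transcripts. Of the 35 probe sets 5 end in _s_at and 2 in _x_at, all of them tested.

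For the histone-binding subunits, all 5 tested probe sets had a GCRMA difference below 0, and 3 of the 5 had the opposite sign in MAS5. Their unadjusted limma p-values were 0.239 or more in the filtered fit. Rbbp7 at 1456227_x_at read 13.76, 13.70 and 13.70 in knockdown arrays 1 to 3, against 13.88, 13.87 and 13.77 in wild type arrays 1 to 3. The groups do not overlap, and the difference was −0.12 (−0.36 to 0.11). In MAS5 the groups overlap there, and the difference was −0.0037. The second Rbbp7 probe set, 1415775_at, had −0.045 from GCRMA and 0.085 from MAS5. The 3 tested Rbbp4 probe sets differed by −0.041, −0.12 and −0.13, and the first and last gave 0.066 and 0.074 in MAS5. RBBP4 and RBBP7 are close paralogs that also serve in other chromatin complexes, and whether each probe set reads 1 of the genes alone was not tested.

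**Figure D2:**
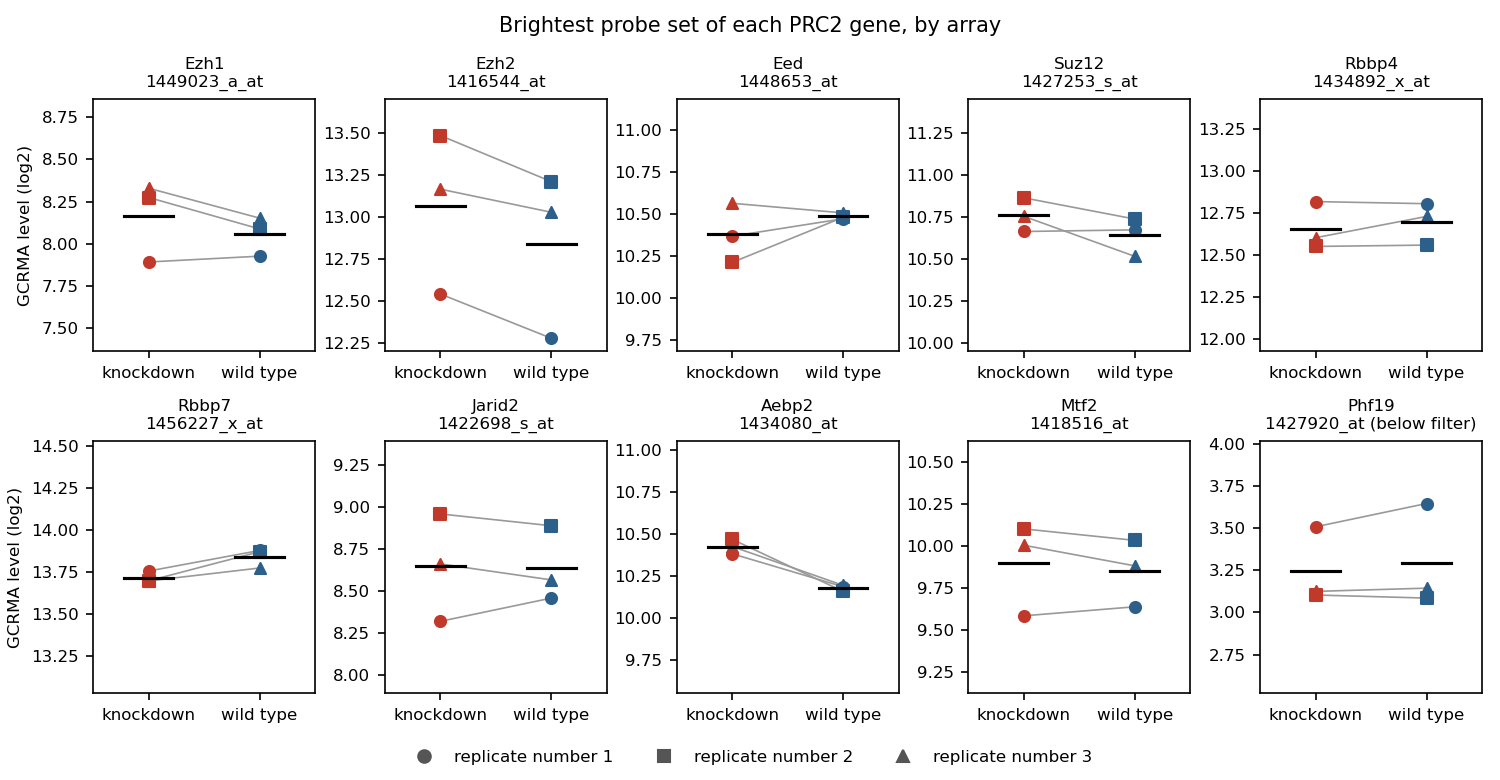
GCRMA level (vertical axis, log2, the same span in every panel) of the brightest probe set of each of the 10 genes in the 3 knockdown arrays (left) and the 3 wild type arrays (right). Symbols mark the replicate number, grey lines join arrays of 1 number and black bars are group means. Ezh2 runs from 12.28 to 13.48 with number 1 lowest in both groups, while the 2 groups of Aebp2 do not overlap.

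Aebp2, the zinc finger subunit that joins PRC2 together with JARID2, had a difference above 0 at all 4 tested probe sets. The brightest, 1434080_at, read 10.38, 10.47 and 10.43 in knockdown arrays 1 to 3, against 10.19, 10.16 and 10.19 in wild type arrays 1 to 3. All 3 knockdown arrays were above all 3 wild type arrays, and within numbers the knockdown was higher by 0.20, 0.31 and 0.23. The difference was 0.25 (0.01 to 0.48), or 1.19-fold, with a limma unadjusted p of 0.0452 and an adjusted p of 0.36. MAS5 gave 0.25, also without overlap.

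At the dimmer Aebp2 probe sets the summaries differ. Probe set 1435070_at read 6.70, 6.57 and 6.88 in knockdown arrays 1 to 3, against 6.54, 6.07 and 6.46 in wild type arrays 1 to 3. The GCRMA difference was 0.36 (limma unadjusted p = 0.0208, adjusted p = 0.30), while MAS5 gave 0.060, where the groups overlap. At 1421021_at the knockdown arrays read 4.59, 4.25 and 4.83 and the wild type arrays 4.04, 4.06 and 4.07, just above the filter, with a difference of 0.50 (limma unadjusted p = 0.0133, adjusted p = 0.271). In MAS5 that probe set differed by 0.21. Probe set 1437743_at had a GCRMA difference of 0.14 and a MAS5 difference of 0.85 (limma unadjusted p = 0.0167), the 1 member of 26 under 0.05 there, where 10.6% of all tested probe sets were. The probe sets share their gene and arrays, so they are not separate replicates of the comparison.

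Jarid2, which helps bring PRC2 to chromatin, had 3 probe sets that did not give 1 answer. At 1422697_s_at it read 8.09, 8.42 and 8.16 in knockdown arrays 1 to 3, against 7.97, 8.09 and 7.84 in wild type arrays 1 to 3. The lowest knockdown value is just above the highest wild type value, and the difference was 0.26 (limma unadjusted p = 0.0485, adjusted p = 0.363). Without the block its unadjusted limma p was 0.0964. MAS5 gave 0.14 there (limma unadjusted p = 0.238), and the groups overlap. In GCRMA the other probe sets differed by 0.0090 at 1422698_s_at and by −0.14 at 1450710_at. At the latter, knockdown array 1 read 7.77 and the other 5 arrays between 8.16 and 8.34.

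The Polycomb-like genes are represented by Mtf2, whose protein binds CpG-rich DNA. Its brightest probe set, 1418516_at, averaged 9.90 ± 0.27 in the knockdown and 9.85 ± 0.20 in wild type (SD, n = 3 each), and the 4 tested probe sets differed by −0.22 to 0.050. The widest interval, at 1449115_at, ran from −0.63 to 0.18. Phf19 was below the filter at both of its probe sets, which read at most 3.65 in any array against array medians of 2.99 to 3.10. In all, 9 PRC2 probe sets lay below the filter, from 2.02 to 3.65, and without a filter their differences ran from −0.11 to 0.025. Such low values do not show that a transcript was absent.

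The replicate number was set beside the knockdown for each PRC2 probe set. The mean of both arrays numbered 1 minus the mean of the other 4 arrays was larger in size than the knockdown difference at 17 of 26 PRC2 probe sets (65.4%, against 61.9% of all tested), which is near the background. Number 1 was the lower at 17 of 26, against 43.5% of all tested. Ezh2 had the largest such difference among them, −0.81, larger in size than at 94.8% of tested probe sets. All 4 tested Mtf2 probe sets were lower in number 1, by −0.48 to −0.36, as were the 3 of Jarid2, by −0.38 to −0.098. The 3 of Rbbp4 and the 2 of Rbbp7 were higher, by 0.057 to 0.29. The 4 of Aebp2 differed by −0.027 to 0.12, so that Aebp2 showed little of this pattern. These are descriptions of 2 arrays against 4, with no test.

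**Figure D3:**
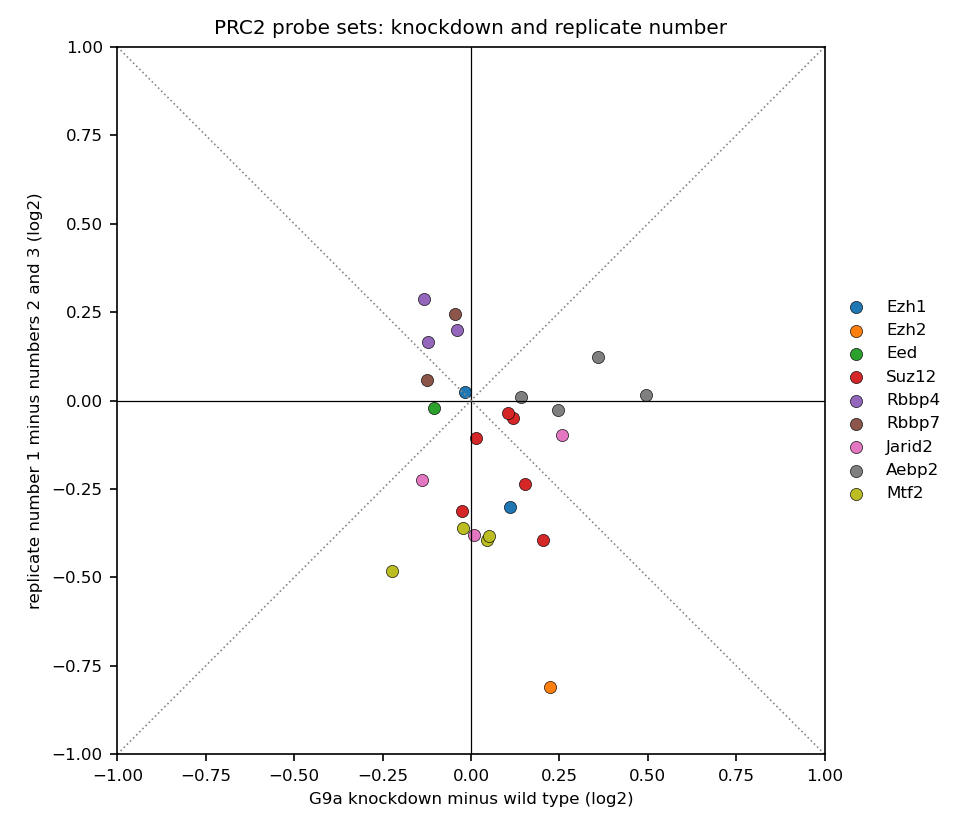
Each point is 1 of the 26 tested PRC2 probe sets, coloured by gene, with its knockdown minus wild type difference (horizontal, log2) and its difference between replicate number 1 and numbers 2 and 3 (vertical, log2). Dotted lines mark equal size. Ezh2 lies lowest, at −0.81, and the Aebp2 points lie to the right, up to 0.50.

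Over the 6 arrays the pattern of Ezh2 was compared with that of 9024 other genes by Pearson's r, given without a p because the arrays share groups and numbers and those numbered 1 stand apart. The genes most like it were Zcchc9, Ndufa6, Ccnl1, Klhl28 and Nktr, with r of 0.992 to 0.999 (0.87 to 0.98 in MAS5). The least alike were Fkbp1a, Tmem9b and Tbc1d13, with r of −0.999 to −0.991. In MAS5 these 3 had r of −0.85, −0.72 and −0.13. Of the genes compared, 272 (3.01%) had an r above 0.9. Among the PRC2 genes r with Ezh2 was 0.96 for Mtf2, 0.87 for Jarid2, 0.86 for Ezh1, 0.49 for Suz12, 0.37 for Aebp2, −0.25 for Eed, −0.52 for Rbbp7 and −0.92 for Rbbp4. In MAS5, in the same order, r was 0.89, 0.84, 0.69, 0.60, 0.12, 0.15, 0.38 and −0.56. The sign thus turned for Eed and Rbbp7. Each PRC2 gene is represented there by its brightest tested probe set, which for Rbbp4 is 1434892_x_at.

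Genes of DNA replication, of division and of their control, listed because Ezh2 is often high in dividing cells, mostly ran against Ezh2. The list includes the regulators Rb1 and Rbl1, with r of 0.50 and −0.70. Of 24 tested, 21 had a negative r with Ezh2 (87.5%, against 58.4% of all genes compared). The helicase gene Mcm7 had r = −0.987. In number 1 these genes were higher in 22 of 24 (91.7%, against 58.6% of all genes), with a median of 0.73. In the knockdown 9 of 24 were lower at an unadjusted limma p under 0.05 and 0 were higher, where 7.63% of genes were lower by that rule. None was called over all probe sets. Uhrf1, which maintains DNA methylation, differed by −0.87 (limma adjusted p = 0.149), the nucleotide synthesis gene Rrm2 by −1.16 (limma adjusted p = 0.167), the helicase gene Hells by −0.72 and the cyclin gene Ccne2 by −0.48. Their part in the Ezh2 values was not tested. In these bulk samples, fewer cells of a type and less RNA per cell cannot be told apart.

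**Figure D4:**
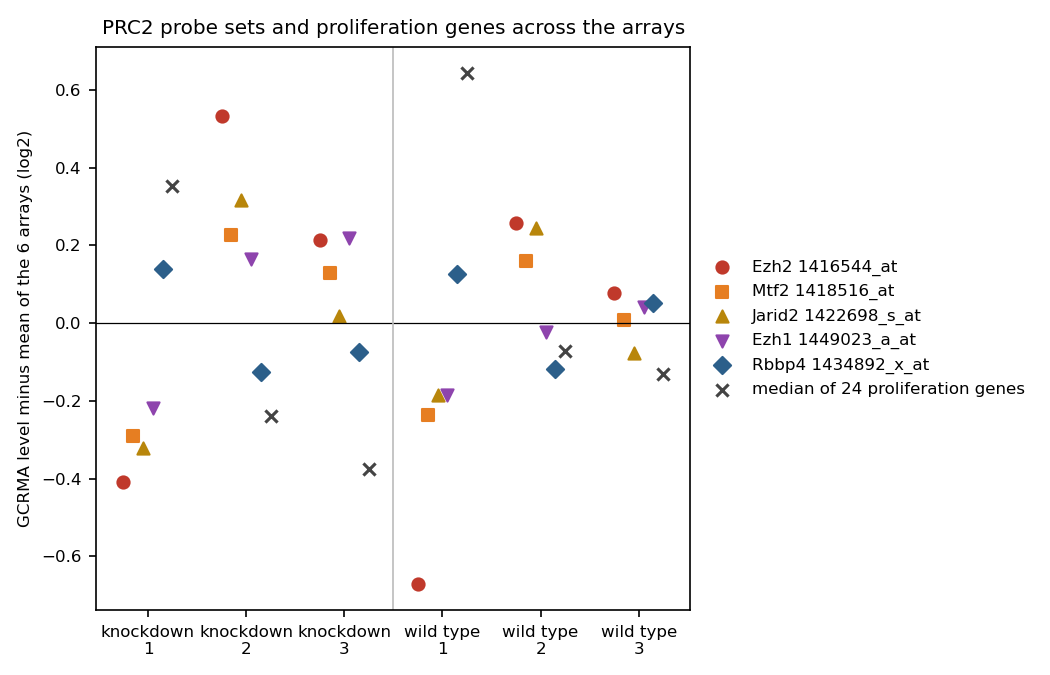
GCRMA level minus the mean of the 6 arrays (vertical axis, log2) in each knockdown array (left) and wild type array (right) for 5 PRC2 probe sets and for the median of 24 proliferation genes. Ezh2, Mtf2, Jarid2 and Ezh1 lie below 0 in both arrays numbered 1. There the Rbbp4 probe set shown, 1434892_x_at, and the proliferation median lie above 0.

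The wider Polycomb system gave no call either. In 5 lists of related genes, 55 were tested at 1 probe set each, and 7 had an unadjusted limma p under 0.05, all higher in the knockdown, or 12.7% against 14.2% of all genes in either direction and 6.56% higher. None was called, where 0.0111% of genes were. Of the 55, 36 had a difference above 0, against 48.9% of all genes, with a median of 0.087 against −0.0063 over all genes, and the lowest adjusted p was 0.204. Among further PRC2 partners 2 of 4 tested were above 0. Lcorl, whose protein is a partner of PRC2, read 9.67, 10.39 and 10.23 in knockdown arrays 1 to 3, against 9.22, 9.97 and 9.70 in wild type arrays 1 to 3. The difference was 0.46 at that probe set (limma adjusted p = 0.204), while the other 3 gave 0.32, −0.39 and −0.19. The elongin genes Elob and Eloc and the Lcorl paralog Lcor differed by −0.12, −0.058 and 0.027. The other tested probe sets of Eloc gave −0.39, −0.41 and 0.10, those of Lcor 0.039 and −0.0054, and that of Elob −0.14. Phf1, Epop and Ezhip were below the filter.

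Of 21 tested genes of polycomb repressive complex 1, which ubiquitinates histone H2A, 15 were above 0 and 2 had an unadjusted limma p under 0.05. Over all genes 48.9% were above 0 and 14.2% were under 0.05. Cbx6, a reader of methylated lysine 27, differed by 0.35 (limma adjusted p = 0.271) and Pcgf3, a subunit of a variant complex, by 0.41 (limma adjusted p = 0.287). The groups did not overlap in either, as at 12.4% of all tested probe sets. The ubiquitin ligase gene Ring1 and Pcgf5 differed by 0.17 and 0.21. In the deubiquitinase complex that removes this mark, 7 of 9 were above 0 at their brightest tested probe set. Other tested probe sets gave −0.25 for Asxl1, −0.12 and −0.43 for Asxl2 and 0.047 for Bap1. Foxk2 differed by 0.33 (−0.06 and −0.04 at its other probe sets), Kdm1b by 0.31, Hcfc1 by −0.18 and Foxk1 by 0.14.

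Enzymes that remove or oppose lysine 27 methylation were above 0 in 4 of 7, against 48.9% of all genes. The demethylase gene Kdm6b read 9.38, 9.71 and 9.16 in knockdown arrays 1 to 3, against 9.18, 9.38 and 8.95 in wild type arrays 1 to 3, a difference of 0.25 between groups that overlap (limma adjusted p = 0.36). Uty, the Y-linked relative of Kdm6a, differed by 0.42 (limma adjusted p = 0.211), and by 0.41, 0.02 and −0.11 at its other probe sets. The lysine 36 methyltransferase genes Nsd3 and Nsd1 differed by −0.17 and −0.18, and the other tested probe sets of Nsd3 by 0.071, −0.37 and −0.056. Of the genes widely known as PRC2 targets, 14 of 52 on the array passed the filter (26.9%, against 49.6% of all genes on it). Of those, 8 were above 0 and 0 had an unadjusted limma p under 0.05, against 48.9% and 14.2% of all genes. Hoxb13 and Hoxc10 differed by 0.29 and 0.20, Pax6 by −0.32 and the cell cycle inhibitor gene Cdkn2b by −0.15 (limma adjusted p 0.444 to 0.55).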

How the data were processed

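The labels name 6 hybridizations, each deposited in 2 summaries, so the 12 columns are 6 arrays. Per the labels, the authors deposited GCRMA and MAS5 summaries. By the range of the values, what was deposited as GCRMA is log2, and what was deposited as MAS5 is linear intensity. The version of the authors' software is not given in the sources used here. Of 45101 probe sets 64 controls were left out. Gene names are those of GEO's platform annotation, and 0 symbols changed in RefSeq (GRCm38.p6).

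Knockdown minus wild type was fitted with limma 3.58.1 in R 4.3.3 (lmFit, eBayes) on GCRMA, blocked on the replicate number, with Benjamini-Hochberg adjustment at 0.05, for probe sets above log2 4 in at least 3 arrays. Arrays of the same number deviated together (0.72, 0.57 and 0.37), and those of numbers 2 and 3 also did so across numbers (0.17 and 0.13). Deviations from a mean of 3 arrays depend on each other, so number 1, which stands apart in both groups, affects all of these values. They show number 1 apart, and whether numbers 2 and 3 pair the arrays is not settled. MAS5 was fitted as log2(value + 1). The fit was tested on simulated data. Outside PRC2 a gene is given at its brightest tested probe set. Alternatives were no block, MAS5 with 2 pseudocounts, no filter and a filter at log2 6, a trended robust prior, quantile normalization, and leaving arrays out. For related lists, up to 4 genes by lowest p are named. The members and lists were chosen with earlier results of these data known. The number of arrays limits the precision.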

Additional observations from a re-analysis of the deposited data

How the results depend on the processing

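No PRC2 probe set was called under any setting run. The count of PRC2 probe sets at an unadjusted p under 0.05 was 4, became 1 with MAS5 at either pseudocount (1 and 16) and 2 with no replicate block, and was 0 to 2 when arrays were left out. With no filter those 4 stayed under 0.05. Ezh2 1416544_at (higher, limma unadjusted p = 0.00906, adjusted p = 0.317) and Rbbp7 1456227_x_at (lower, limma unadjusted p = 0.0342, adjusted p = 0.499) then passed too. The share of all probe sets under 0.05 in that fit is not given here. Of the 55 Polycomb and 24 proliferation genes tested, 16 passed that rule, where 14.2% of all genes did. They were 7 Polycomb genes, all higher in the knockdown, and 9 proliferation genes, all lower. With no replicate block 5 passed, where 5.87% of all tested probe sets did. With arrays left out 2 to 11 passed, or 9 to 11 with the block kept. The probe sets called over the array numbered 2, but 0 with MAS5 at either pseudocount, 0 with no filter, 8 with the filter at log2 6, 1 with no replicate block, 6 with a trended robust prior, and 0 to 1 when arrays were left out. Ehmt2 kept its direction throughout but was not called under some settings. At 1426888_at and 1460692_at it differed by −2.71 and −2.46 with MAS5 at pseudocount 1, by −2.41 and −2.42 at 16, and by −2.86 and −2.87 with no filter (limma adjusted p = 0.19), each with a limma adjusted p above 0.05, and 1460692_at by −2.87 with no replicate block (limma adjusted p = 0.0719). With arrays left out they ran from −3.01 to −2.70 and from −3.06 to −2.61. The cause was not tested. MAS5 turned the sign at pseudocounts 1 and 16 for Ezh1 1449023_a_at (−0.089 and −0.087) and 1418290_a_at (0.026 and 0.024), Rbbp4 1434892_x_at (0.066 and 0.065) and 1454791_a_at (0.074 and 0.073), Rbbp7 1415775_at (0.085 and 0.085), Jarid2 1450710_at (0.068 and 0.067), Mtf2 1418514_at (−0.0055 and −0.0056) and Ring1 (−0.023 and −0.023). Leaving out arrays turned the sign of small differences. The ranges pool fits without both arrays of a number, with the block, and fits without 1 array, with no block. They were Aebp2 1437743_at −0.0098 to 0.27, Eloc −0.16 to 0.026, Ezh1 1418290_a_at −0.097 to 0.078 and Ezh2 1416544_at −0.055 to 0.49. Ranges that crossed 0 were also Jarid2 1422698_s_at −0.15 to 0.17, Jarid2 1450710_at −0.26 to 0.065, Lcor −0.17 to 0.20 and Mtf2 1418514_at −0.074 to 0.18. The differences ran over Mtf2 1418515_at −0.17 to 0.14, Mtf2 1418516_at −0.061 to 0.20, Pax6 −0.64 to 0.071 and Rbbp4 1434892_x_at −0.12 to 0.013. Further ranges were Rbbp4 1454791_a_at −0.33 to 0.047, Rbbp7 1415775_at −0.11 to 0.069, Suz12 1420020_at −0.033 to 0.059 and Suz12 1420022_s_at −0.071 to 0.53. The last was Suz12 1449661_at −0.16 to 0.15. With the block kept, some of these ranges did not cross 0. They were Ezh2 0.20 to 0.27, Eloc −0.099 to −0.023 and Pax6 −0.58 to −0.19. Mtf2 1418516_at (0.0072 to 0.095) and Aebp2 1437743_at (0.0068 to 0.22) also stayed above 0, and the remaining ranges listed crossed 0 with the block as well. With the filter at log2 6, Ezh1 1418290_a_at, Suz12 1420020_at, Aebp2 1437743_at and 1421021_at and Pax6 had no value. With 3 arrays a group, the number of arrays limits what can be called.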
